A study of Mus musculus with 4 samples.

Results

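The phagocyte NADPH oxidase is the enzyme with which neutrophils and macrophages turn oxygen into superoxide. Its messenger RNAs were followed here in samples from mice with fibrotic liver. The mice were given or not given G-CSF, granulocyte colony-stimulating factor, the main growth signal for neutrophils. The 6 genes described are Cybb and Cyba, which encode the membrane subunits, Ncf1, Ncf4 and Rac2, which encode cytosolic subunits, and Nox4, an oxidase of non-phagocytic cells. They were matched by gene symbol to 12 probe sets that each list a single gene, out of 18193 genes with such a probe set on the array. All 6 genes had a mean signal above the filter on low values (95.03), as did 11 of the 12 probe sets.

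All mice were of the C57BL/6 strain and were made fibrotic with 30 injections of the hepatotoxin carbon tetrachloride at 1 ml/kg. In the final 7 days the G-CSF group was given recombinant human G-CSF at 100 µg/kg. The PBS group was given 0.1% mouse serum albumin in saline buffered with phosphate (PBS). Total RNA from 2 samples per group was measured, each on 1 Affymetrix array. The labels conflict on the origin of this RNA, naming the liver in one place and cells of marrow origin in another. Whether the values stand for whole liver or for such cells cannot be told from the labels. Age, sex and any pooling of animals are not given in the sources used here. Whether the samples were separate animals is not said in the labels, so p-values measure only the spread between these samples, which may be technical.

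In the resting phagocyte the membrane subunits sit together as flavocytochrome b558, while the organizer, adaptor and GTPase subunits wait in the cytosol. On stimulation the cytosolic subunits are phosphorylated or loaded with GTP and dock on the membrane pair, which then passes electrons from NADPH to oxygen. Loss of Cybb, Cyba or Ncf1 causes chronic granulomatous disease, in which phagocytes ingest microbes but do not kill some of them. Nox4 needs Cyba but not the cytosolic subunits, makes mainly hydrogen peroxide, and in liver is best known from activated stellate cells and myofibroblasts.

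The sequences before the start site are shown because 2 of the members that were higher with G-CSF, Cybb and Ncf1, hold a spaced GAAA repeat, which the windows of Cyba, also higher, and Nox4, not higher, lack. RefSeq windows of GRCm38.p6, running from 250 bases before to 50 bases after the annotated start, were at hand for 4 members: Cybb, Cyba, Ncf1 and Nox4. The last 200 bases before the start are printed on the gene's strand, with each pair of GAAA copies parted by any 2 bases, on either strand, a pattern of interferon regulatory factor elements, in capitals. They lie at chrX:9469325-9469524 (minus strand) for Cybb, chr5:134229626-134229825 (minus strand) for Ncf1, chr8:122432941-122433140 (minus strand) for Cyba and chr7:87246449-87246648 (plus strand) for Nox4.
Cybb: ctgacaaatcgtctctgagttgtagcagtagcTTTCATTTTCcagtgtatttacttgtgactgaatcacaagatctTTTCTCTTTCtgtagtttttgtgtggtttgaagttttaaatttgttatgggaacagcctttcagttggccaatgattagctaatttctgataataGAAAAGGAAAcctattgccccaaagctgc
Ncf1: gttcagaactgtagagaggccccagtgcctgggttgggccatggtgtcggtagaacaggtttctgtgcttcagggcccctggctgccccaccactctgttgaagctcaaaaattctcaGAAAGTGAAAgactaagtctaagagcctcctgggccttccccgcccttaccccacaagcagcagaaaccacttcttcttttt
Cyba: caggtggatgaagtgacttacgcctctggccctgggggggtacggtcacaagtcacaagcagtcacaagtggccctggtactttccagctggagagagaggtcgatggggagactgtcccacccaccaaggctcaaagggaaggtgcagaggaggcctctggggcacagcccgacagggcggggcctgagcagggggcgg
Nox4: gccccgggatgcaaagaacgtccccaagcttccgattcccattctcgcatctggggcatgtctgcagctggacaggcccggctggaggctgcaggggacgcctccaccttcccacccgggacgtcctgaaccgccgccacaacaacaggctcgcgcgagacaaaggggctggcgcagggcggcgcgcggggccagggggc

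Both strands of the whole windows were searched for 10 motifs, whose letters were chosen after the expression values were known. The GAAA repeat was found in the windows of 2 members and in 3.44% of all 32851 windows. The Cybb matches begin at −168, −124 and −29 from the start, the first pair on the opposite strand, and the Ncf1 match begins at −82. GAGGAA, the purine-rich core bound by PU.1, occurs once among the 4 windows, on the opposite strand of Cybb beginning at base 10 after the start, and in 28.3% of all windows. The ETS core GGAA occurs in all 4 and in 96% of windows, and it lies within GAGGAA and overlaps the Cybb repeats at −168 and −29. The GC box GGGCGG occurs in Ncf1, Cyba and Nox4 and in 35.7% of windows. CCAAT (37.4%) and TTGCNNCAA (2.08%) occur in Cybb alone among the 4. GAGGAAGT (3.2%), TTGCNNAA (10.8%), TATAAA (13.6%) and TGACTCA (5.2%) match none of the 4. The G and C content of the printed stretch is 36.5% for Cybb, 53.5% for Ncf1, 64% for Cyba and 70% for Nox4. These matches describe letters and were not set against binding data.

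The arrays differed in more than the treatment. PBS replicate 1 stood apart, with a Pearson correlation to the other arrays of 0.813 to 0.844 over 12187 genes, against 0.939 to 0.974 among the others. Alb, the main hepatocyte protein, had signals of 43301 to 52315, close to the highest signals of the arrays (58436 to 63693). Summed over 7 hepatocyte markers, the signal varied more, at 163735 and 270416 on PBS arrays 1 and 2 against 247255 and 240604 on the G-CSF arrays. Ptprc, the pan-leukocyte CD45, had signals of 8322 to 31265. Transcripts of both kinds of cell were thus measured in these samples, which are labelled both as liver and as cells of marrow origin. The labels describe no sorting of cells, and in such bulk RNA fewer cells of a type and less RNA per cell cannot be told apart. The ratio of 3' to 5' Gapdh control signals, a gauge of RNA quality, was 14.8 and 15.7 on the PBS arrays against 19.1 and 20.2 on the G-CSF arrays. Its part in the differences below was not tested. Differences are G-CSF values minus PBS values of log2(signal + 23), with the standard error (SE) of a limma fit over all genes. Each is also given against a single PBS array. No gene of the whole array passed an adjusted p of 0.05 in this fit: 0 were called higher and 0 lower, while 382 higher and 47 lower had a limma unadjusted p below 0.05.

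Of the 6 genes, 4 had groups that did not overlap and a difference of at least 2-fold: Cybb, Cyba, Ncf1 and Ncf4. That pattern was met by 4.04% of all genes tested, and by 1.52% in the lower direction, where no member stood. Groups that did not overlap, at any size and higher with G-CSF, were found for 18.6% of genes. The same 4 had a limma unadjusted p below 0.05, against 3.13% of genes in that direction. None of the 6 was called after Benjamini-Hochberg adjustment, where the share of all genes was 0%. With PBS replicate 1 left out, Ncf1 and Rac2 were called higher, beside 2.78% of all genes. With PBS replicate 2 left out, Cybb, Cyba, Ncf1 and Ncf4 were called, beside 22.6% of all genes. Both fits assume that the lone PBS array varies like the G-CSF arrays. The median difference of the 6 was 1.31 and that of all 12187 genes was 0.07. For 1 gene, the smallest two-sided p that an exact permutation test over 2 arrays against 2 allows is 0.333.

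Cybb encodes gp91phox, the catalytic subunit that carries the heme and flavin of the enzyme. Its brightest probe set, 1436778_at, had signals of 1941 and 4951 on PBS arrays 1 and 2, and of 10429.7 and 6818 on G-CSF arrays 1 and 2, the order kept below. Both G-CSF arrays lay above both PBS arrays, but the lower G-CSF signal was only 1.38 times the higher PBS signal. The difference was 1.44 ± 0.55 (SE, n = 2 arrays per group), a 2.71-fold change, with a limma adjusted p of 0.988. Against PBS replicate 1 alone it was 2.11 and against PBS replicate 2 alone 0.77.

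The other Cybb probe sets gave the same order of groups. The 1436779_at signals, from the same source sequence as the brightest one, were 328 and 570.3 on the PBS arrays against 1424 and 908 on the G-CSF arrays. The 1422978_at signals were 53.4 and 234 on the PBS arrays against 392 and 305 on the G-CSF arrays, and its first PBS value lay under the background limit of that array, 106. Their differences were 1.35 ± 0.44 and 1.40 ± 0.64, close to that of the brightest probe set.

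Cyba encodes p22phox, which stabilizes both the Cybb and the Nox4 protein. Its only probe set had signals of 2335 and 3350.45 on the PBS arrays against 7278 and 5585 on the G-CSF arrays. The PBS arrays were close to each other here, at a ratio of 1.44, and the lower G-CSF signal was 1.67 times the higher PBS signal. The difference was 1.18 ± 0.36 (2.27-fold, limma adjusted p = 0.988), and 1.44 and 0.92 against the PBS arrays taken singly. Cyba thus had the smallest SE of the 6 genes.

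Ncf1 encodes p47phox, the organizer whose phosphorylation starts assembly, and it showed the largest difference among the 6 genes. Its brightest probe set, 1456772_at, had signals of 1081 and 2067 on the PBS arrays against 11924 and 7894 on the G-CSF arrays. The groups lay far apart: the lower G-CSF signal was 3.82 times the higher PBS signal. The difference was 2.68 ± 0.46, a 6.40-fold change, with a limma unadjusted p of 0.00190 and an adjusted p of 0.331. It was 3.14 against PBS replicate 1 alone and 2.22 against PBS replicate 2 alone. Among all 12187 genes, 67, Ncf1 included, had a difference at least as high, which is 0.55%.

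Of the weaker Ncf1 probe sets, which share a source sequence, 1451767_at had signals of 29.5 and 160.0 on the PBS arrays against 614 and 462 on the G-CSF arrays. Its difference was 2.50 ± 0.65, and 3.40 and 1.60 against the PBS arrays taken singly. The first PBS value lay under the background limit of that array, 106, so the size of the first 2 of these differences is uncertain. The dimmest, 1425609_at, was the 1 member probe set below the filter and was not tested. It was not above background in PBS (49.5 and 51.0) and had signals of 150.5 and 127 with G-CSF, at least 1.31-fold higher. Such a lower bound sets the PBS signals to the array's background limit.

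Ncf4 encodes p40phox, which binds phosphoinositides on the phagosome and sustains the oxidase there. Its signals were 519 and 1394 on the PBS arrays against 2883 and 2493 on the G-CSF arrays. The G-CSF arrays were near each other and above both PBS arrays, which themselves differed 2.69-fold. The difference was 1.63 ± 0.54 (3.09-fold, limma adjusted p = 0.988), and 2.32 and 0.93 against PBS replicates 1 and 2 taken singly.

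Rac2 encodes the small GTPase of blood cells that activates the assembled enzyme and, unlike the other phagocyte subunits, overlapped between the groups. The 1417620_at signals were 3166 and 799.8 on the PBS arrays against 3033 and 2618 on the G-CSF arrays. PBS replicate 1 was the highest array and PBS replicate 2 the lowest, so the groups overlapped. The difference was 0.81 ± 0.69 (95% interval −0.95 to 2.57, limma adjusted p = 0.988). It was −0.17 against PBS replicate 1 alone and 1.79 against PBS replicate 2 alone, so the direction turned with the PBS array. The weaker probe set, 1440208_at, lay near background at 130 and 87.7 on the PBS arrays against 142 and 129 on the G-CSF arrays.

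Rac2 is made in lymphocytes as well as phagocytes, and T cell markers were also higher in PBS replicate 1 than in PBS replicate 2. Summed over 11 T cell markers of 12 listed, the signal was 20747 in PBS replicate 1 and 2205 in PBS replicate 2, against 3248 and 1832 with G-CSF. Cd8a was an exception, at 1362 and 1359 on the PBS arrays against 2249 and 962 on the G-CSF arrays, and made up much of the sums outside PBS replicate 1. Coro1a, another actin regulator of all leukocytes, had signals of 12129 and 1872 on the PBS arrays against 11873 and 10188 on the G-CSF arrays. It was high and low on the same arrays as Rac2. Other leukocyte markers differed in this. Ptprc was also highest on PBS replicate 1 and lowest on PBS replicate 2. Itgb2, Laptm5 and Cd53 were higher on both G-CSF arrays than on either PBS array. The part of T cell transcripts in the Rac2 signal was not tested.

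Nox4 was weak throughout. The 1451827_a_at signals were 76.7 and 171 on the PBS arrays against 110.2 and 101 on the G-CSF arrays, and the first value lay below the background limit of its array. The 1419161_a_at signals were 49.7 and 177 on the PBS arrays against 46.3 and 148 on the G-CSF arrays. PBS replicate 2 was the highest array by either probe set and the groups overlapped. The difference was −0.11 ± 0.50 for the brighter probe set, with a 95% interval of −1.39 to 1.17 and a limma adjusted p of 0.994. It was 0.37 against PBS replicate 1 alone and −0.59 against PBS replicate 2 alone. At signals this near background, where the pseudocount understates changes, even that wide interval may not bound a change of Nox4. Markers of stellate cells and myofibroblasts, in which Nox4 is known, were well measured, with 11 of 11 above background on each array and summed signals of 59089 and 89409 on the PBS arrays against 88769.8 and 104708 on the G-CSF arrays. Their median difference was 0.47, and 0.80 and 0.07 against PBS replicates 1 and 2 taken singly.

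**Figure D1:**
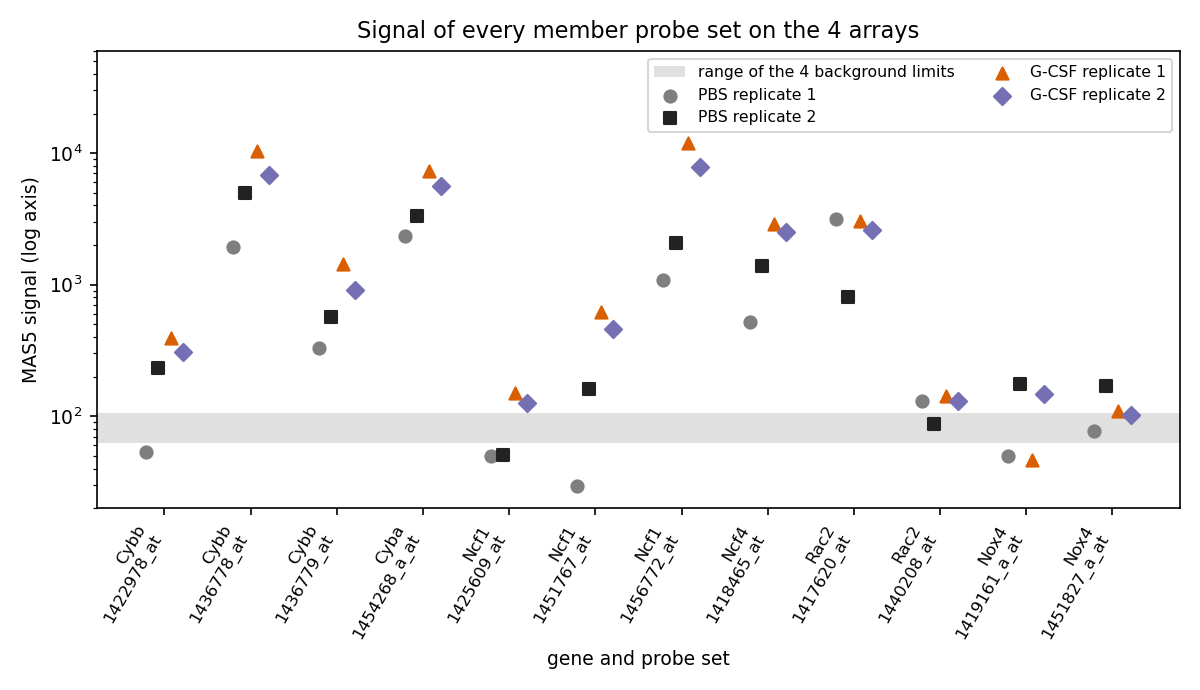
MAS5 signal (log axis) of each of the 12 member probe sets, named by gene and probe set, with 1 point per array and the range of the array background limits in grey. The G-CSF points lie above both PBS points for every Cybb, Cyba, Ncf1 and Ncf4 probe set and overlap them for Rac2 and Nox4.

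Over the 10 probe sets of the phagocyte subunits, 8 had both G-CSF signals above both PBS signals; the others were those of Rac2. Among the 9 of them above the filter on low values the count was 7, and 17.6% of all single-gene probe sets above the filter showed that order. The array signals of different probe sets have no common scale, so the levels of the subunits were not set against each other. Sums over marker lists mostly follow their brightest probe sets, and each sum was compared only between arrays.

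**Figure D2:**
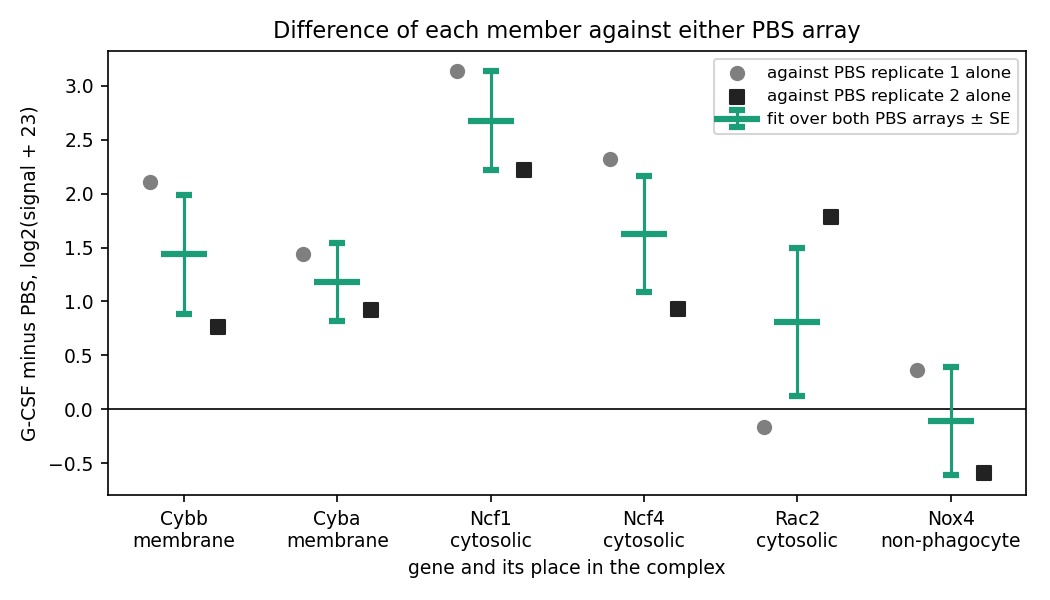
Difference G-CSF minus PBS, as log2(signal + 23), for the 6 genes, as the fit over both PBS arrays with its SE and against either PBS array alone. Cybb, Cyba, Ncf1 and Ncf4 stay above 0 against either array, from 0.77 for Cybb to 3.14 for Ncf1, while Rac2 and Nox4 lie on both sides of 0.

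The membrane differences lay within the range of the cytosolic ones. The mean difference was 1.31 for Cybb and Cyba and 1.70 for Ncf1, Ncf4 and Rac2, so the membrane mean lay lower by 0.40 (−0.40). Against PBS replicate 1 alone the gap was 0.01 and against PBS replicate 2 alone −0.80, and Rac2 was the member whose difference varied most between these. The gap between Ncf1 and the membrane pair varied less: Ncf1 exceeded their mean by 1.37 over all arrays, and by 1.41, 1.42, 1.32 and 1.32 in the 4 pairings of a G-CSF with a PBS array. The cytosolic genes themselves ran from 0.81 for Rac2 to 2.68 for Ncf1. These values rest on the brightest probe set of each gene. With the mean of all probe sets Ncf1 differed by 2.11, Cybb by 1.39 and Cyba by 1.18, and the membrane mean lay lower than the cytosolic mean by 0.14 (−0.14). No p is given for these means, since the genes were chosen with results known.

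Across the 4 arrays Cybb and Ncf4 had the most similar profiles of any 2 members, at a root mean square difference of 0.17 in log2 values centred on each gene's mean. Cybb and Cyba followed at 0.33, while Rac2 lay 0.90 to 1.39 from the other phagocyte subunits. By the same measure over 4 arrays, the genes nearest to Ncf1 among all tested were Fpr2, a formyl peptide receptor (0.14), Hdc, which makes histamine (0.16), and Hk3, a hexokinase of myeloid cells (0.18). Nearest to Ncf4 were Btk, a kinase of B and myeloid cells (0.02), Sgms2 (0.04) and Ifitm2 (0.05). Nearest to Cybb were Kcnd1 (0.08), Mtus1 (0.08) and Skap2, an adaptor of leukocyte integrin signalling (0.09). Nearest to Cyba were Ddit3, Mogat2 and L1cam (0.04, 0.04 and 0.05). Nearest to Rac2 were 1700066B19Rik, E2f2 and Ercc2 (0.07, 0.08 and 0.14), and nearest to Nox4 were Kcp, Mea1 and Laptm4a (0.02, 0.03 and 0.04). With 4 arrays and 12187 genes, close matches are many, and no function is read from them.

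**Figure D3:**
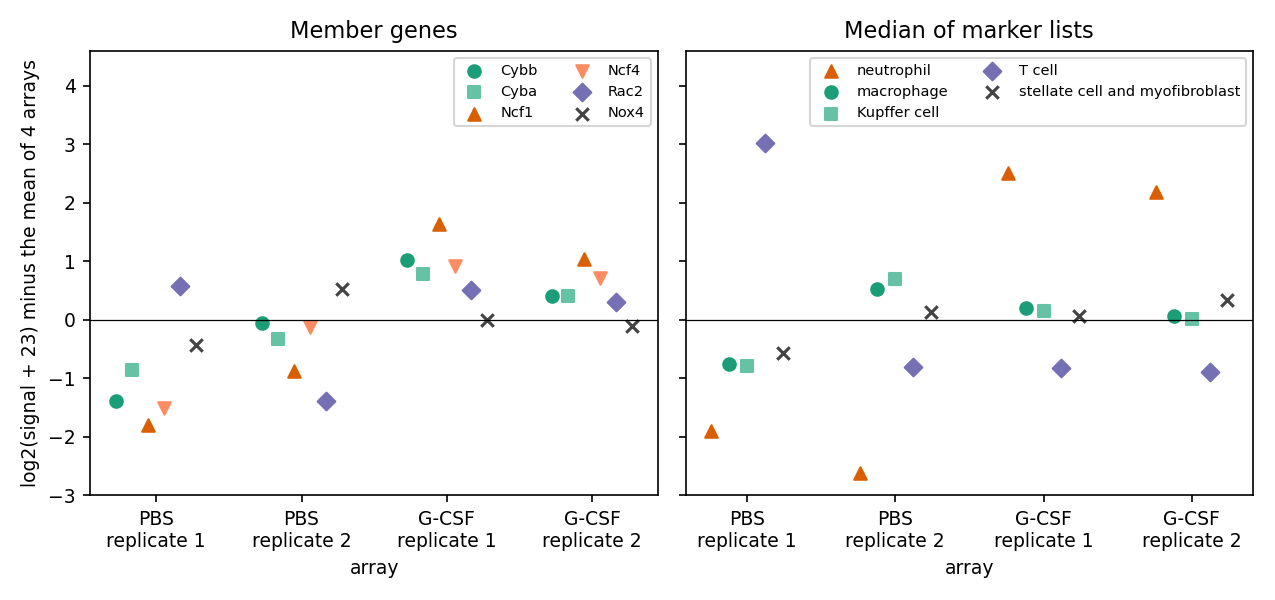
Values on the log2(signal + 23) scale minus the mean of the 4 arrays, for the 6 genes (left) and as the median over tested genes of 5 marker lists (right), by array. Rac2 and T cell markers are both high on PBS replicate 1, but Rac2 is also high on the G-CSF arrays, where T cell markers are low. Ncf1 and neutrophil markers are both high on the G-CSF arrays. Between the PBS arrays, Ncf1 is higher on replicate 2 and neutrophil markers on replicate 1.

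The arrays with G-CSF also gave higher signals for neutrophil markers. Summed over 12 neutrophil markers of 15 listed, the signal was 28830.3 and 17546 on the PBS arrays against 283659 and 217845 on the G-CSF arrays, and the groups did not overlap for any of the 12, each at least 2-fold higher. Their differences ran from 2.59 to 5.95 with a median of 4.48, and the lowest of them exceeded the difference of each oxidase subunit but Ncf1 (2.68). The lists share the PBS arrays with the oxidase genes, and their part in the oxidase differences was not tested. Macrophage markers, from cells that also carry the oxidase, had a summed signal over 11 genes of 17702 and 41634 on the PBS arrays against 33467 and 31506 on the G-CSF arrays, with a median difference of 0.28 over 9 tested genes (0.83 and −0.42 against PBS replicates 1 and 2 singly). Kupffer cell markers summed over 7 genes gave 18415 and 48268 on the PBS arrays against 35395 and 30241 on the G-CSF arrays, with Marco and Timd4 at background on all arrays. Both lists were thus more than 2-fold higher in PBS replicate 2 than in PBS replicate 1, as were Cybb and Ncf4. This was not particular to them: monocyte sums (23160 and 51864.5), endothelial sums (1851 and 4527) and Nox4 rose more than 2-fold as well. Monocyte markers had a median difference of 0.32 over 8 genes (0.97 and −0.10 against PBS replicates 1 and 2 singly). Of the 8, 3 were at least 2-fold higher without overlap, beside 4.04% of all genes tested.

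Of other parts and helpers of the complex, 6 of 9 listed genes were tested, and the others were not analysed here. The median difference was 0.47 (0.27 and 0.67 against PBS replicates 1 and 2 singly). Only 1 gene was at least 2-fold higher without overlap and none lower, beside 4.04% and 1.52% of all genes tested. The 1 higher gene was Arhgdib, which holds small GTPases such as Rac2 inactive in the cytosol of blood cells. Its signals were 6565 and 1971 on the PBS arrays against 16005 and 10654 on the G-CSF arrays, with a difference of 1.85 ± 0.64 that was 0.99 against PBS replicate 1 alone and 2.71 against PBS replicate 2 alone. PBS replicate 1 was the higher PBS array for it, as for Rac2, yet both G-CSF arrays lay above it. Cybc1, a chaperone needed for the Cybb protein, differed by 0.51 ± 0.32, and Nrros, which lowers the Cybb protein, by 0.53 ± 0.39. Rac1, the widely made relative of Rac2, differed by 0.43 ± 0.39, and Hvcn1, the proton channel that balances the charge moved by the enzyme, by 0.13 ± 0.39. None of the 4 had a limma unadjusted p below 0.05.

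Of the receptors that trigger the oxidase, 8 of 10 listed genes were tested, with a median difference of 1.10 (1.55 and 0.56 against PBS replicates 1 and 2 singly). Among the 8, 4 were at least 2-fold higher without overlap and none lower, beside 4.04% and 1.52% of all genes tested. Fpr2 had signals of 635 and 1030.0 on the PBS arrays against 7476 and 5172 on the G-CSF arrays, a difference of 2.91 ± 0.41. C5ar1, the receptor of complement C5a, differed by 1.69 ± 0.47, with signals of 58.1 and 126 against 384 and 285. Its first PBS value lay under the background limit of that array, 106, so the size of its difference is uncertain. Itgb2, the beta 2 chain of leukocyte integrins, differed by 1.34 ± 0.32, and Fcgr3, a receptor for antibody-coated particles, by 1.27 ± 0.48. Itgam, the alpha chain paired with Itgb2 on phagocytes, lay below the filter and was not above background in PBS. Its signals were 33.5 and 31.3 on the PBS arrays against 164 and 141 on the G-CSF arrays, at least 1.42-fold higher. Tlr4 and Tnfrsf1a differed by 0.94 ± 0.51 and 0.79 ± 0.41, Clec7a, a receptor of fungal glucan, by 0.50 ± 0.45 and Fcgr1 by 0.09 ± 0.46.

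Of the upstream kinases and exchange factors, 16 of 18 were tested, with a median difference of 0.37 (0.19 and 0.57 against PBS replicates 1 and 2 singly). Among the 16, 3 were at least 2-fold higher without overlap and none lower, beside 4.04% and 1.52% of all genes tested. Syk, the kinase below antibody receptors and integrins, had signals of 704 and 1920.1 on the PBS arrays against 3569 and 3122 on the G-CSF arrays, a difference of 1.50 ± 0.55. Vav3, an exchange factor for Rac, had 269.9 and 355 on the PBS arrays against 877 and 829.9 on the G-CSF arrays, a difference of 1.40 ± 0.33. Plcg2, a phospholipase that releases calcium and activates protein kinase C, differed by 1.13 ± 0.50. Prkcd and Prkcb, kinases that phosphorylate p47phox, differed by 0.64 ± 0.32 and 0.17 ± 0.59. Mapk14 and Pik3r5 differed by 0.68 ± 0.34 and 0.61 ± 0.40, and Prkca by −0.59 ± 0.38.

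Of the transcription factors, 5 of 6 were tested, with a median of 0.29 (0.74 and 0.19 against PBS replicates 1 and 2 singly). Only 1, Spi1, was at least 2-fold higher without overlap and none lower, beside 4.04% and 1.52% of all genes tested. Spi1 encodes PU.1, which drives Cybb, Ncf1 and Ncf4 transcription in myeloid cells. Its signals were 346 and 561 on the PBS arrays against 1218 and 1009 on the G-CSF arrays, a difference of 1.28 ± 0.38 (limma unadjusted p = 0.0193). It was 1.62 against PBS replicate 1 alone and 0.95 against PBS replicate 2 alone. The interferon regulatory factors Irf8 and Irf1 differed by 0.59 ± 0.40 and −0.41 ± 0.31, Elf1 by −0.57 ± 0.62 and Cebpa by 0.29 ± 0.43.

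Of the enzymes that use superoxide or hydrogen peroxide, 6 of 8 were tested, with a median of 0.19 (0.42 and −0.25 against PBS replicates 1 and 2 singly). Only 1 was at least 2-fold higher without overlap and none lower, beside 4.04% and 1.52% of all genes tested. The 1 was Mpo, myeloperoxidase, which turns hydrogen peroxide into hypochlorous acid in neutrophils. Its signals were 166 and 96.4 on the PBS arrays against 11636 and 21026 on the G-CSF arrays. The differences of Sod1, Sod2 and Cat, which clear superoxide and hydrogen peroxide in most cells, were 0.03 ± 0.29, −0.03 ± 0.35 and 0.00 ± 0.31, and those of Gpx1 and Sod3 were 0.35 ± 0.50 and 0.35 ± 0.42. Among other NADPH oxidases and partners, 1 of 9 listed genes was tested: Poldip2, a Nox4 partner, which differed by 0.02 ± 0.35. Noxo1, the organizer of Nox1, lay below the filter and was not above background in PBS. Its signals were 11.6 and 17.6 on the PBS arrays against 95.4 and 83.0 on the G-CSF arrays. On average these G-CSF signals lay no higher than the background limits of the PBS arrays, 106 and 94.6, so no lower bound on a fold can be given. Duox1, Duoxa1 and Duoxa2 also lay below the filter, with signals of 8.6 to 73.3.

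**Figure D4:**
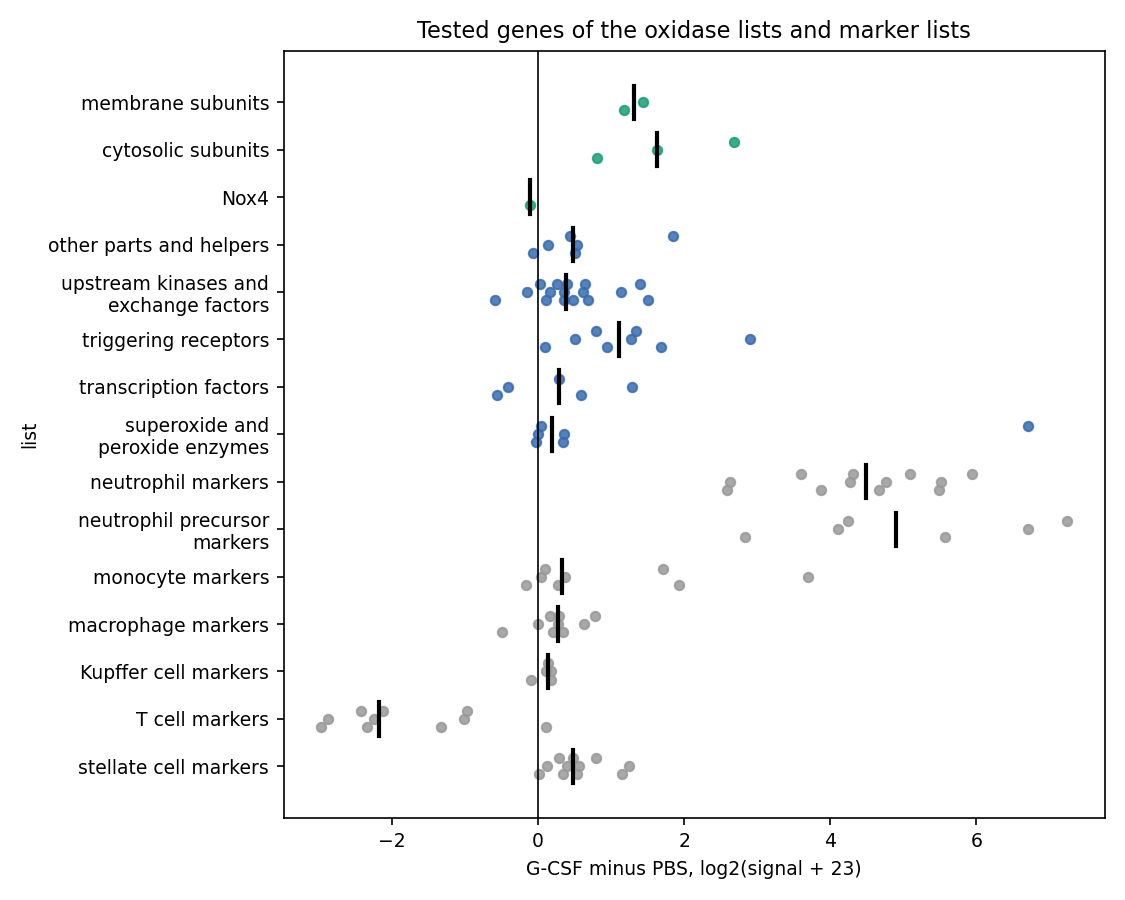
Difference G-CSF minus PBS, as log2(signal + 23), for tested genes of the oxidase lists (green for the 6 genes, blue for related genes) and of marker lists (grey), with the median of each list as a bar. All of the 6 genes but Nox4 lie above the macrophage median of 0.28, and all 6 lie below the medians of neutrophil (4.48) and neutrophil precursor markers (4.90).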

How the data were processed

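The deposited intensity values are MAS5 signals per probe set on a linear scale, 1 array per sample, computed and scaled by the authors, per the submitters' processing notes (MAS5 version: not given in the sources used here). All 4 arrays had a trimmed mean (2%) of 500, and this scaling was kept. The number of arrays limits the precision. Labelled RNA came from 40 ng of total RNA, per the labels.

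Control probe sets (64) and those listing several genes (932) or none (9160) were left out. Of the other 34945, which list 1 gene each, 34741 were matched by Entrez ID to a RefSeq table (GRCm38.p6) for current symbols. The probe set with the highest mean stood for its gene. Tests covered the 12187 genes whose mean exceeded 95.03, the median over non-control probe sets. A pseudocount of 23, which is 92.9 (the overall median signal) over 4 without decimals, was added before log2, which understates changes of weak genes. The test was limma's (version 3.58.1, R 4.3.3; lmFit, eBayes with a trend, two-sided, Benjamini-Hochberg at 0.05), and all single-gene probe sets in a second such fit. The background limit of an array was the highest of 27 control probe sets for bacterial sequences (106, 94.6, 86.4 and 63.0 on the PBS and then the G-CSF arrays).

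Samples were grouped by title. The replicate number does not pair the arrays by the labels. The members and lists were chosen with earlier results of these data known. Named are the 6 members, list genes whose groups did not overlap and differed at least 2-fold or with an unadjusted p below 0.05, up to 4 more per list by p, and the 3 nearest profiles per member. Coro1a, Ptprc, Laptm5, Cd53, Cd8a, Alb, Marco and Timd4, and list genes below the filter or beyond that rule, were named after their values were seen. Alternatives covered scaling, pseudocount, filter, fit, probe set choice, a replicate block and each array left out. The fit was tested on simulated data with the same spread for every gene and no outlying array, unlike the arrays here. Plots used matplotlib 3.10.9 under Python 3.11.15.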

Additional observations from a re-analysis of the deposited data

How the results depend on the processing

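Cybb, Cyba, Ncf1 and Ncf4 were higher with G-CSF under each alternative that gave a value, and their differences ran from 0.77 to 2.11, 0.92 to 1.44, 2.11 to 3.14 and 0.93 to 2.32. Rac2 reversed to −0.17 and Nox4 to 0.37 without PBS replicate 2 (1.79 and −0.59 without PBS replicate 1), and the cause was not tested. Nox4 gave no value with the 75th percentile filter, and neither it nor Cyba with specific probe sets only, where the membrane gap also has none. That gap (−0.40) ran from −0.80 to 0.01 with an array left out, and was −0.14 with the mean of all probe sets. Of the 6 members 0 to 4 were called with an array left out: Ncf1 and Rac2 without PBS replicate 1 (limma adjusted p = 0.00900 and 0.00816) and Cybb, Cyba, Ncf1 and Ncf4 without PBS replicate 2. In those fits 2.78 and 22.6 percent of all genes were called higher, and the lone PBS array is assumed to vary like the G-CSF arrays. With the replicate number as a block, 1 member, Ncf1, was called, beside 89 genes higher and 3 lower over all genes. Same-numbered arrays deviated from their group means with a correlation of −0.04, so the numbers give no sign of pairing. With specific probe sets only, 11 genes were called higher. With an array left out, 6 to 2753 genes were called higher and 0 to 1936 lower. Genes whose groups did not overlap and differed at least 2-fold numbered 492 higher and 185 lower. The 75th percentile filter gave 295 higher and 83 lower, no filter 304 lower, 4 times the pseudocount 107 lower, the mean of all probe sets 120 lower, and each probe set tested by itself 315 lower. With an array left out they were 546 to 2007 higher and 267 to 1349 lower. Nox4 and the weaker Ncf1 and Rac2 probe sets lay near background, which limits what can be said of them.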
